A study of Mus musculus with 12 samples.

Results

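A group of 10 genes that set the energy programme of heart muscle were followed in total and ribosome-bound RNA of adult mouse hearts with and without Rpl3l. They are the nuclear receptor Ppara, its partner Rxra, the estrogen-related receptors Esrra, Esrrb and Esrrg, the coactivators Ppargc1a, Ppargc1b and Perm1, and the downstream factors Nrf1 and Tfam. The 10 genes were taken by name from the 55401 gene identifiers listed for every library, through GENCODE M21 gene names. Earlier results of these data were known when they were chosen. All 10 had counts, and 16598 of the 55401 genes had a count in any library. The hearts were wild type (WT) or Rpl3l-/- (KO), a genotype without the paralog of ribosomal protein Rpl3 that striated muscle makes, and the labels give no age beyond adult and no sex. Total poly(A) RNA extracted from homogenates gave the Input libraries. Ribosomes pulled down through an HA tag from hearts treated with cycloheximide, which stalls elongating ribosomes, gave the IP libraries. The same pull-down was used in both genotypes. The labels do not say which protein or which cells carry the tag, nor whether an Input and an IP library came from 1 heart. Each of the 4 groups held 3 libraries, read as nanopore direct cDNA.

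PPARα, the product of Ppara, is a fatty acid sensor that binds DNA together with the retinoid X receptor RXRα (Rxra) and drives genes of fatty acid uptake and oxidation. The estrogen-related receptors bind a related element without a known natural ligand and drive genes of the citric acid cycle and respiratory chain, and the PGC-1 coactivators (Ppargc1a, Ppargc1b) and the muscle protein PERM1 act with them. NRF1 in turn drives nuclear genes for respiratory chain subunits and for TFAM, the protein that packages mitochondrial DNA and is needed for its transcription.

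Library totals ran from 169359 counts (KO Input replicate 3) to 710868 counts (KO IP replicate 2), so that 3 counts stood for 3.92 to 17.0 CPM, the counts scaled to a common library size with TMM factors over tested genes. The 10 genes together took 122 to 695 counts per library. Rpl3l was counted 89, 125 and 83 times in WT Input and 18, 7 and 9 times in KO Input. In IP it was counted 182, 158 and 156 times in WT and 1, 2 and 5 times in KO, so the genotype labels held in both fractions. Cardiomyocyte markers summed to between 44176 and 52930 CPM in every library, with Actc1 at 0 in all. Globin genes took 1.70% to 17.2% of the counts, most in WT IP replicate 2 and WT Input replicate 3. All 37 listed genes of the mitochondrial chromosome were at 0 in every library, so transcripts of the genome that TFAM serves were not analysed here. These are bulk libraries, in which fewer cells of a type and less RNA per cell cannot be told apart.

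In GENCODE M21 (GRCm38) Ppara lies at chr15:85734983-85802819, Rxra at chr2:27676440-27762957, Esrra at chr19:6910977-6921813, Esrrb at chr12:86361117-86521628 and Esrrg at chr1:187608791-188214885. Ppargc1a lies at chr5:51454250-51567726, Perm1 at chr4:156215868-156221307, Nrf1 at chr6:30047988-30153458, Tfam at chr10:71225464-71238280 and Ppargc1b on chromosome 18. There is 1 count per gene, so isoforms were not told apart, and Perm1 has 1 annotated coding transcript where Nrf1 has 17.

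Perm1 and Esrra were the most abundant of the 10 genes, and the receptors and factors with low counts limited what could be compared. Over all 12 libraries Perm1 had 1695 counts, Esrra 992, Ppargc1a 462, Tfam 380, Rxra 257, Esrrg 209, Ppargc1b 165, Ppara 140, Esrrb 102 and Nrf1 51. Per kilobase of annotated transcript, Esrra stood first in WT Input at 73.2 ± 12.8 CPM (SD, n = 3), followed by Perm1 at 53.8 ± 7.61. Tfam came next at 11.9 ± 3.29 CPM per kilobase, and Rxra and Ppargc1a followed at 9.27 ± 2.59 and 9.08 ± 0.397. The WT Input libraries of neighbours overlapped from Tfam to Ppargc1a, and again among Esrrg, Ppara, Ppargc1b, Esrrb and Nrf1, which lay between 5.26 and 3.01 CPM per kilobase. On this scale the order at the top turned in IP. Perm1 stood at 98.9 ± 11.9 CPM per kilobase in WT and Esrra at 89.5 ± 13.6, and these libraries overlapped. The same held in KO, where Perm1 stood at 92.2 ± 13.5 CPM per kilobase in IP and Esrra at 77.9 ± 24.7. Without division by length, Perm1 was already above Esrra in WT Input, with means of 210 and 164 CPM. In KO Input it was below Esrra, with means of 186 and 214 CPM. Within a library the count of Perm1 was 1.61, 1.09 and 1.20 times that of Esrra in WT Input and 1.46, 2.24 and 2.20 times in WT IP. In KO the same ratio was 1.05, 1.00 and 0.673 in Input and 1.82, 2.67 and 1.95 in IP, with no overlap between the fractions.

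Of the 10 genes 8 passed the filter on low counts, set at about 22.6 CPM per plain library total, before TMM scaling, in at least 3 libraries, and were among the 6596 genes tested. Esrrb reached that level in 2 libraries and Nrf1 in 0 of 12, and neither was tested. Ppargc1b passed through its 6 IP libraries, since on that scale 0 of its 6 Input libraries reached the level. Ppara passed through 4 libraries on the same scale, 3 of them IP. For these 2 genes high IP values were part of how they entered the test, and the fitted IP difference is read with that limit.

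**Figure D1:**
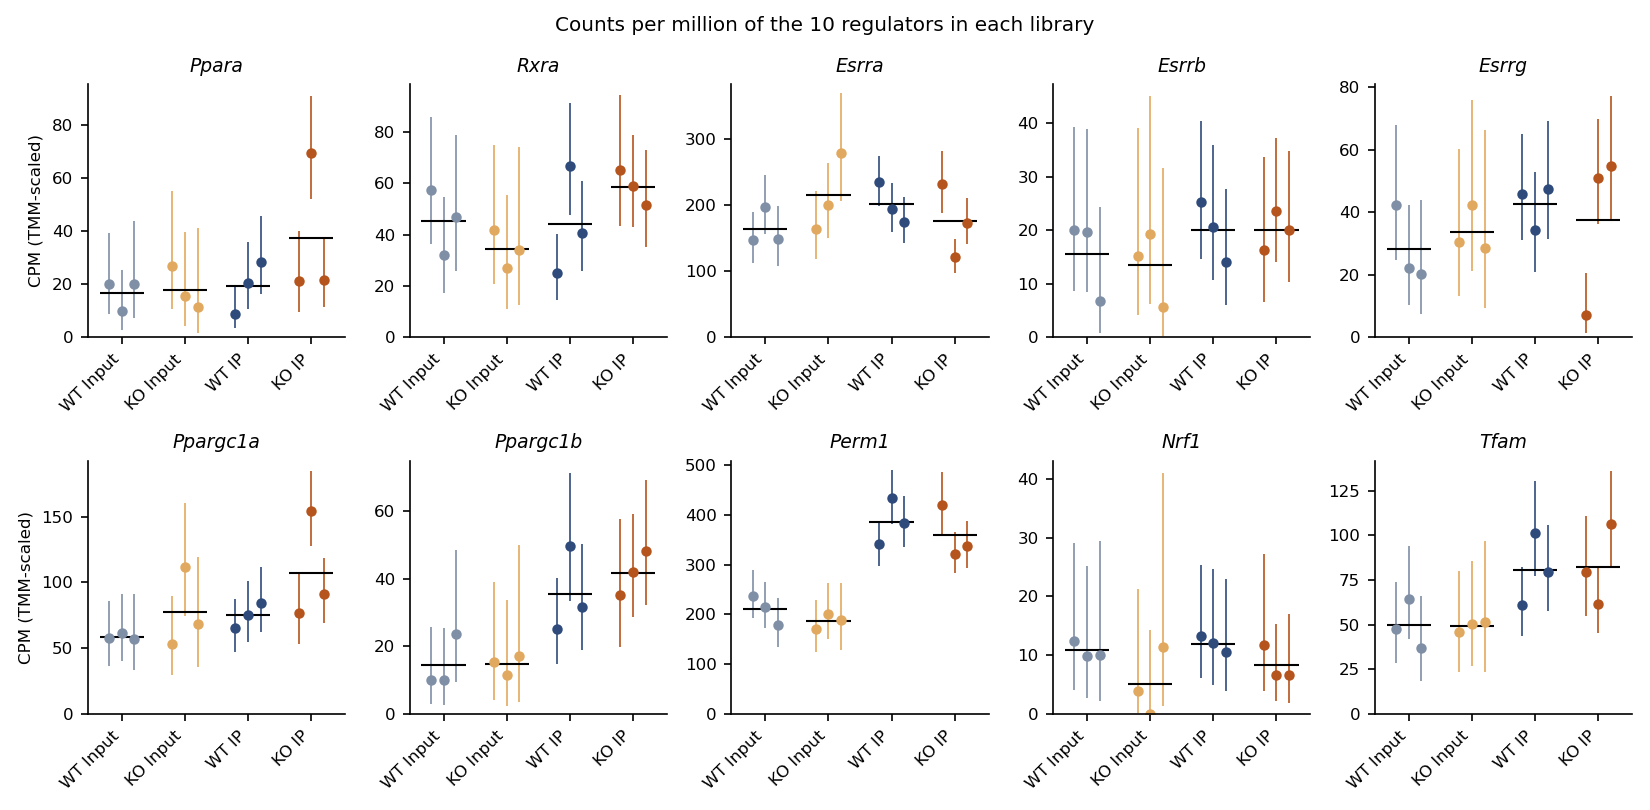
Scaled counts (TMM-scaled CPM, vertical axis) of the 10 genes in each of the 12 libraries, by group. Points are libraries with exact 95% Poisson intervals of their counts, which cover counting error only, and black lines are group means of 3 libraries. Perm1 and Ppargc1b lie higher in all IP than in all Input libraries of their genotype, and KO IP replicate 2 stands apart for Ppara at 69.3 CPM.

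The start regions of 3 of these genes are shown to let a reader see which of them hold the short elements that members of the group are known to bind. RefSeq promoters (GRCm38.p6, 250 bases before to 50 bases after the start, on the gene's strand) were at hand for 9 of the 10 genes, 15 windows in all. The windows were searched on both strands for 3 motifs, CAAGGTCA (the core bound by estrogen-related receptors), GCGCANGC (the NRF1 core) and GGTCANAGG (the core of a PPAR direct repeat). Capitals mark matches of the NRF1 core, 3 in Esrra and 2 overlapping ones in Ppara. Perm1 had no match of any of the 3 motifs, and neither had the window of Tfam, which is not printed.
Esrra, chr19:6921759-6922058, minus strand: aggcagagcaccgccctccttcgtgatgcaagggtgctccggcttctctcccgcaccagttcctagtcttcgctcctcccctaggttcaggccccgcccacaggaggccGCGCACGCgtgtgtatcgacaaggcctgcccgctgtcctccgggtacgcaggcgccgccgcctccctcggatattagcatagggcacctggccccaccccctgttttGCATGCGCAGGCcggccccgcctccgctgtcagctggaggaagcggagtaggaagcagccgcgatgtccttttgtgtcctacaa
Ppara, chr15:85735526-85735825, plus strand: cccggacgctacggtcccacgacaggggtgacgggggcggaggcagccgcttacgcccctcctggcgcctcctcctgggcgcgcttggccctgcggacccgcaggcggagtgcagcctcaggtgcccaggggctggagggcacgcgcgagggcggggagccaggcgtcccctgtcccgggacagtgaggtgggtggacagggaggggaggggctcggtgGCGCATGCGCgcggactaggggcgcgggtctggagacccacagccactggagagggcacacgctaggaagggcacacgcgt
Perm1, chr4:156215677-156215976, plus strand: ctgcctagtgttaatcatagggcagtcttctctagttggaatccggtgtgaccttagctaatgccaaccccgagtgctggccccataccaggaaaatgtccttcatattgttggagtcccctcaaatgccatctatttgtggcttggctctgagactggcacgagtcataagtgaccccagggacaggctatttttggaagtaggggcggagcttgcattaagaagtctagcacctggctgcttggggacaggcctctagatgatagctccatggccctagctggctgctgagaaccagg
The Esrra matches start 141, 34 and 30 bases before the annotated start, and the last pair overlap. The Ppara matches start 31 and 29 bases before it. An NRF1 core was found in 3 of the 15 windows (20%), the third in Rxra, against 9.95% of all 32851 promoters. The PPAR core was found in 1 window, of Rxra, against 1.72% of all promoters, and the estrogen-related receptor core in 0 against 1.56%. A match describes letters in these windows and was not tied to any value below.

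The loss of Rpl3l was not accompanied by a change of any tested gene of the group that passed the threshold, in either fraction. Of 8 tested genes 0 were called in Input by edgeR's quasi-likelihood test (adjusted p under 0.05), where 0.182% of all tested genes were called. In IP 0 of 8 were called, against 0.0910% of all tested genes. At an unadjusted p under 0.05 there were 0 of 8 in Input and 2 of 8 in IP, against 7.11% and 5.20% of all tested genes, and the DESeq2 and limma-voom tests called 0 of them in both. The median log2 difference of the 8 genes was 0.12 in Input and 0.14 in IP, with all tested genes at -0.01 and 0.00. A difference that misses the threshold does not show equal levels, so each gene is given with its interval.

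Ppara was low in every group and had 1 high library. Its counts were 8, 4 and 6 in WT Input and 7, 4 and 2 in KO Input, or 19.9, 9.86 and 20.2 CPM against 26.7, 15.4 and 11.4. In WT IP there were 6, 12 and 16 counts (8.88, 20.6 and 28.2 CPM), and in KO IP 9, 53 and 13 counts (21, 69.3 and 21.6 CPM). KO IP replicate 2 lay above every other library, with a counting interval of 51.9 to 90.7 CPM, while the other KO IP libraries fell within the WT range. The fitted KO against WT difference in IP was 1.04 on the log2 scale (SE 0.47, 95% interval 0.08 to 2.01), with an unadjusted p of 0.0349 and an adjusted p of 0.920 by edgeR's quasi-likelihood test. Without KO IP replicate 2 it was 0.17. In Input it was 0.17 (interval -1.23 to 1.58), a fold of 0.425 to 2.98, so that a difference within this range was not detectable at this depth.

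Rxra, which encodes the DNA-binding partner of PPARα, overlapped between genotypes in both fractions. Its levels were 57.3, 32.1 and 47.0 CPM in WT Input and 41.9, 27.0 and 34.1 CPM in KO Input. In IP they were 25.2, 66.8 and 40.5 CPM in WT and 65.3, 58.9 and 51.5 CPM in KO. The WT IP libraries spanned the widest range of the 4 groups, and the KO IP libraries all lay in its upper part. The log2 differences were -0.40 (interval -1.25 to 0.46) in Input and 0.41 (interval -0.23 to 1.05) in IP, neither past the threshold.

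Esrra, the most expressed of the estrogen-related receptors, had values of 147, 197 and 148 CPM in WT Input and 164, 200 and 278 CPM in KO Input. The KO value of 278 CPM came from the shallowest library, with 49 counts. In IP it stood at 234, 194 and 174 CPM in WT and 231, 120 and 173 CPM in KO, so that all groups overlapped. The log2 difference was 0.35 (interval -0.16 to 0.86) in Input and -0.23 (interval -0.68 to 0.22) in IP. Leaving out that library, with the 2 libraries richest in globin, brought the Input value to 0.08. Exons of Esrra overlap Trmt112 on the opposite strand (267 counts) and Mir6990 on the same strand (1 count), and the sources used here do not state whether strand was used in counting.

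Esrrg, the family member linked to oxidative muscle, had 1 library with almost no counts. In KO IP it was counted 3, 39 and 33 times (7.0, 51.0 and 54.9 CPM), against 31, 20 and 27 times in WT IP (45.9, 34.3 and 47.5 CPM). Replicate 1 of KO IP was the lowest of all 12 libraries, with a counting interval of 1.44 to 20.5 CPM, and the other KO IP libraries lay above all WT IP libraries. The log2 difference in IP was -0.09 (interval -0.90 to 0.71), and 0.31 without that library. In Input the levels were 42.4, 22.2 and 20.2 CPM in WT and 30.5, 42.4 and 28.4 CPM in KO, a log2 difference of 0.25 (interval -0.85 to 1.35).

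Esrrb, the third receptor of the family, was counted 8, 8 and 2 times in WT Input, 4, 5 and 1 times in KO Input, 17, 12 and 8 times in WT IP and 7, 18 and 12 times in KO IP. Its pooled KO to WT ratio, per TMM-scaled library size, was 0.879 in Input (exact 95% interval 0.362 to 2.01) and 1.02 in IP (0.628 to 1.65), intervals that cover counting error only. Both intervals span 1.

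Ppargc1a, which encodes the inducible coactivator PGC-1α, shared its high library with Ppara. Levels were 57.3, 61.7 and 57.1 CPM in WT Input and 53.3, 112 and 68.2 CPM in KO Input. In IP they were 65.1, 75.4 and 84.5 CPM in WT and 77.0, 154 and 91.4 CPM in KO. KO IP replicate 2 was again the highest of the 12, from 118 counts, and the WT Input libraries were within a few CPM of each other. The log2 difference in IP was 0.56 (SE 0.26, interval 0.02 to 1.09), with an unadjusted p of 0.0416 and an adjusted p of 0.943 by edgeR's quasi-likelihood test, and 0.18 without that library. In Input it was 0.41 (interval -0.27 to 1.1), and 0.01 without KO Input replicate 2.

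KO IP replicate 2 was the deepest library and differed from its group in a way that followed transcript length. Its tested genes longer than 5 kilobases lay at a median of 0.13 log2 units above their KO IP mean and those shorter than 1 kilobase at -0.17. In KO IP replicate 1, the library low for Esrrg, the same medians were -0.11 and 0.17. The part of this in the values of Ppara, Ppargc1a and Esrrg was not tested.

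The other coactivators had intervals that spanned 0 in both fractions. Ppargc1b, which encodes PGC-1β, had 15 counts in all in WT Input and 10 in KO Input, and 64 and 76 in IP. Its log2 KO against WT difference was 0.06 (interval -1.15 to 1.28) in Input and 0.25 (interval -0.44 to 0.94) in IP. Perm1, a muscle regulator that acts with PGC-1 and the estrogen-related receptors, gave the narrowest intervals of the group, with a log2 difference of -0.18 (interval -0.59 to 0.23) in Input and -0.11 (interval -0.44 to 0.23) in IP. The IP interval corresponds to folds of 0.737 to 1.17.

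Tfam also gave differences near 0, with -0.04 (interval -0.77 to 0.69) in Input and 0.03 (interval -0.50 to 0.57) in IP. Nrf1, the activator that stands above it, was counted 5, 4 and 3 times in WT Input and 1, 0 and 2 times in KO Input. In KO Input replicate 2, the library with the count of 0, 3 counts would stand for 11.6 CPM, so the lower KO values were not resolved. The pooled ratio was 0.395 from 3 against 12 counts (exact 95% interval 0.0716 to 1.47). In IP it was 0.648 from 14 against 22 counts (0.307 to 1.32).

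**Figure D2:**
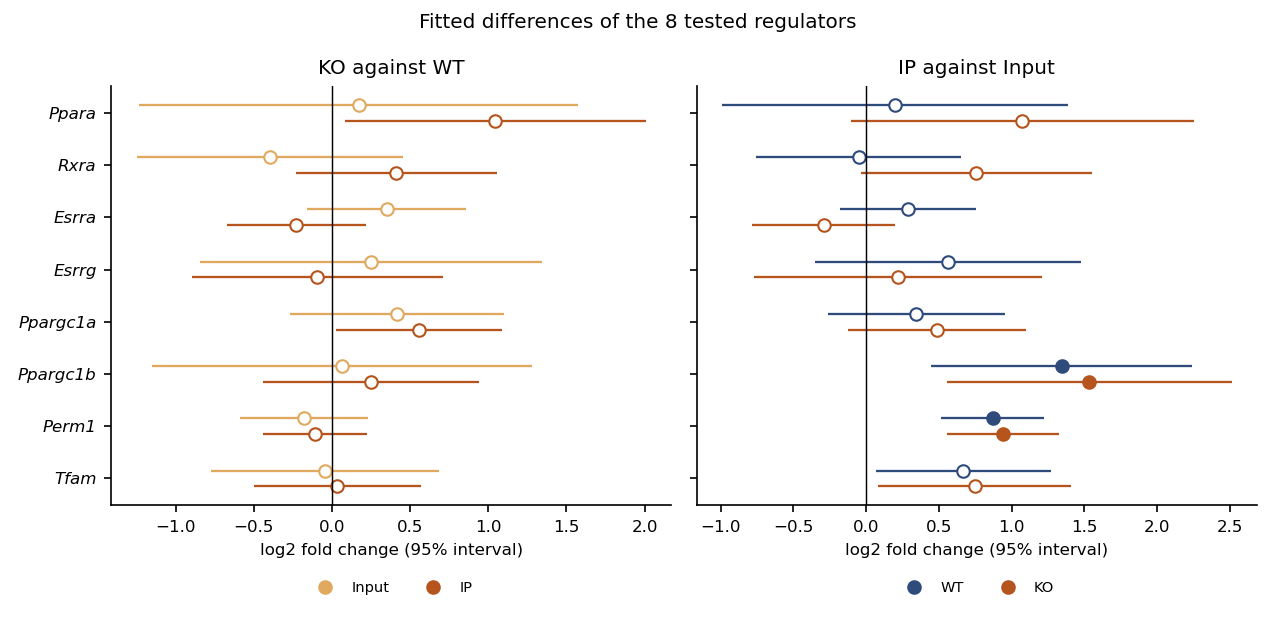
Fitted log2 fold changes (horizontal axis) of the 8 tested genes, KO against WT on the left and IP against Input on the right, with 95% intervals from the edgeR model. Filled points passed an adjusted p of 0.05. All KO against WT points are open, and Perm1 and Ppargc1b are filled in both genotypes for IP against Input.

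Between the fractions, transcripts of the coactivator Perm1 were higher in ribosome-bound than in total RNA, in both genotypes. Those of Ppargc1b were also called higher, but that gene entered the test through the IP libraries alone. Together the 10 genes summed to 547 to 693 CPM in the Input libraries and 844 to 1007 CPM in the IP libraries, with Perm1 and Esrra making 48.6% to 68.1% of their counts. Of the 8 tested genes these 2 passed the threshold in WT, where 5.37% of all tested genes were higher in IP, and in KO, where 6.64% were. By the DESeq2 and limma-voom tests it was 1 of 8 in each genotype, Perm1. Estimates were positive for 7 of the 8 genes in each genotype, with medians of 0.45 in WT and 0.75 in KO, beside 0.02 and 0.01 over all tested genes. At an unadjusted p under 0.05 there were 3 of 8 in each genotype, the third being Tfam, against 27.8% and 29.4% of all tested genes. Since Ppargc1b, and in part Ppara, entered the test through IP libraries, these counts and medians are a description.

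Perm1 stood at 237, 215 and 178 CPM in WT Input and 340, 433 and 384 CPM in WT IP. In KO it stood at 171, 200 and 188 CPM in Input and 420, 322 and 337 CPM in IP. Every IP library was above every Input library of either genotype. The rise was 1.83-fold in WT (log2 0.87, SE 0.17, adjusted p = 0.00105) and 1.92-fold in KO (log2 0.94, SE 0.19, adjusted p = 0.000923), both by edgeR's quasi-likelihood test. The group means were 210 ± 29.7 and 386 ± 46.5 CPM (SD, n = 3) in WT and 186 ± 14.5 and 360 ± 52.8 CPM in KO.

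Ppargc1b rose from 9.97, 9.86 and 23.5 CPM in WT Input to 25.2, 49.7 and 31.7 CPM in WT IP. In KO it rose from 15.2, 11.6 and 17.0 CPM to 35.0, 41.9 and 48.2 CPM. The fractions did not overlap in either genotype, although each Input library held 3 to 7 counts. The log2 difference was 1.34 in WT (SE 0.43, adjusted p = 0.0390) and 1.53 in KO (SE 0.48, adjusted p = 0.0278) by edgeR's quasi-likelihood test. Ppargc1b entered that test through its IP libraries alone, so these p-values are read with that limit. Without a count filter the values were 1.41 (adjusted p = 0.0404) and 1.64 (adjusted p = 0.0225) by the same test. The calls were lost with the DESeq2 test (adjusted p of 0.0979 in WT and 0.0763 in KO), with limma-voom (0.0840 and 0.156), and on leaving out any of 4 single libraries in WT or 4 in KO, with adjusted p up to 0.187 without WT IP replicate 2 and 0.116 without KO Input replicate 2.

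Tfam was 47.4, 64.1 and 36.9 CPM in WT Input against 60.7, 101 and 79.2 CPM in WT IP, which overlapped. In KO it was 45.7, 50.1 and 51.1 CPM against 79.3, 61.5 and 106 CPM, with no overlap. The log2 differences of 0.67 (SE 0.29, adjusted p = 0.131) and 0.75 (SE 0.32, adjusted p = 0.119) did not pass the threshold of edgeR's quasi-likelihood test. Rxra in KO and Ppargc1a in WT were also higher in every IP than in every Input library, with log2 differences of 0.76 and 0.35 and adjusted p of 0.192 and 0.480 by edgeR's quasi-likelihood test. Libraries stood apart in this way for 16.4% of all tested genes in WT and for 15.2% in KO. Among the members it was 3 of 8 in WT and 4 of 8 in KO. Both counts include Ppargc1b, which entered the test through its IP libraries, so they are a description.

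Neither tested estrogen-related receptor was called between the fractions. Esrra differed by 0.29 (interval -0.18 to 0.75) in WT and by -0.29 (interval -0.78 to 0.20) in KO. Esrrg differed by 0.56 (interval -0.35 to 1.48) in WT and 0.22 (interval -0.77 to 1.21) in KO. For Ppara the values were 0.20 (interval -0.99 to 1.39) and 1.07 (interval -0.11 to 2.25), the latter falling to 0.22 without KO IP replicate 2. The untested Esrrb had pooled IP to Input ratios of 1.24 in WT (0.690 to 2.32) and 1.44 in KO (0.702 to 3.25), and Nrf1 of 1.11 (0.525 to 2.46) and 1.82 (0.507 to 9.85). Whether a receptor's difference departs from that of a coactivator was not tested.

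Perm1, Ppargc1b and Tfam have annotated transcripts of 3901, 3656 and 4167 bases, and the difference between fractions depended on length across all tested genes. Its median ran from -0.49 for transcripts up to 1 kilobase to 0.23 above 5 kilobases in WT, and from -0.56 to 0.32 in KO. Input and IP RNA were also purified by different methods, so fraction and method cannot be told apart. Against tested genes of a length within 1.5 times its own, Perm1 was higher by 0.76 in WT and 0.84 in KO, at percentiles 91.4 and 89.8 of those 2860 genes. For Ppargc1b, whose entry into the test depended on its IP values, the differences were 1.25 and 1.45, and no rank is given. Rxra and Esrrg, with transcripts of 4905 and 5373 bases, were at percentiles 35.7 and 75.4 in WT and 80.4 and 50.5 in KO. With the length trend removed Perm1 remained past the threshold in both genotypes, and Ppargc1b in KO but not in WT (adjusted p = 0.0542 by edgeR's quasi-likelihood test).

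**Figure D3:**
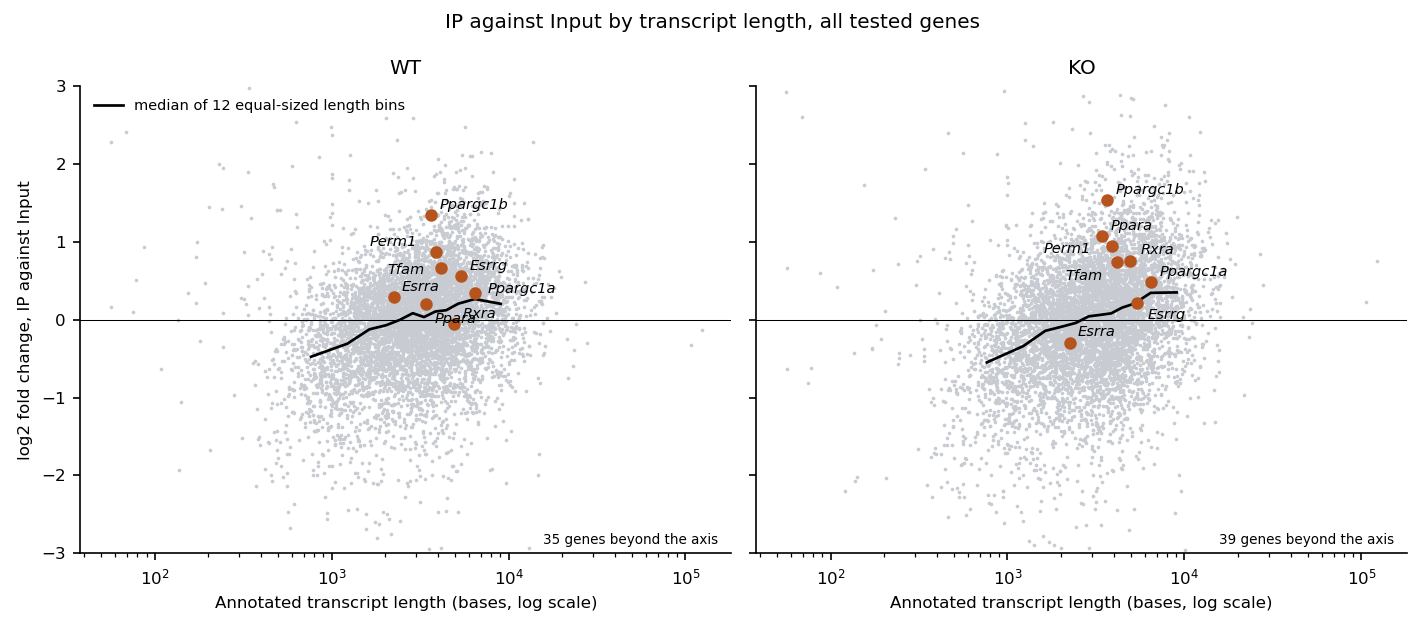
Log2 fold change of IP against Input (vertical axis) against annotated transcript length (horizontal log axis, bases) for all 6596 tested genes, in WT and KO. Orange points are the 8 tested members and the black line is the median of equal-sized length bins. Perm1 and Ppargc1b lie above the line in both genotypes, and Esrra lies above it in WT and below it in KO.

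Adipocyte markers moved with fraction too. The 8 adipocyte markers summed to 187 to 836 CPM in WT Input, 188 to 472 CPM in KO Input and 64.8 to 100 CPM in IP. Ucp1, which brown adipocytes make, was 52.3, 4.93 and 151 CPM in WT Input, 19.0, 27.0 and 5.68 CPM in KO Input and at most 3.43 CPM in IP. Cidea, of the same list, overlapped between the fractions. It was 67.3, 54.3 and 138 CPM in WT Input and 72.5, 82.2 and 45.8 CPM in WT IP, with means of 59.3 and 40.5 CPM in KO. The 8 endothelial markers summed to 885 to 1057 CPM in Input and 683 to 776 CPM in IP. Egfl7 fell most, with means of 246 and 62.3 CPM in WT and 216 and 64.1 CPM in KO. Cdh5 was also lower in IP, with means of 159 and 117 CPM in WT and 179 and 105 CPM in KO. Kdr had means of 154 and 132 CPM in WT and 186 and 140 CPM in KO. Others went the opposite way in WT, such as Pecam1 with means of 75.3 CPM in Input and 99.1 CPM in IP, and Tek with 23.0 and 52.7 CPM. Of the 8 endothelial markers 4 had a positive log2 difference in WT and 4 in KO, beside 51.1% and 50.4% of all tested genes. The 8 fibroblast markers summed to 1253 to 1441 CPM in WT Input and 1463 to 1782 CPM in WT IP. In KO these sums overlapped, at 1167 to 1904 CPM and 1760 to 1956 CPM. Brown fat also uses PPAR and PGC-1 genes, and the part of these cells in the fraction differences was not tested. The summed cardiomyocyte markers overlapped across all 4 groups, but single markers differed between fractions in both directions. In WT, Myh6 had means of 8963 CPM in Input and 6144 CPM in IP, and Ryr2 764 and 1047 CPM. Of 7 tested, 0 were called higher and 1 lower in IP in WT, beside 5.37% and 8.67% of all tested genes. In KO it was 2 higher and 0 lower, beside 6.64% and 9.78%.

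No call was made for a change of the IP to Input difference with genotype. Of 8 genes 0 were called for the interaction by edgeR's quasi-likelihood test, against 0.0910% of all tested genes, with 0 at an unadjusted p under 0.05 (7.02% of all) and 0 by DESeq2 or limma-voom. For Perm1 the interaction was 0.07 (interval -0.45 to 0.60). The values farthest from 0 were 0.87 for Ppara (interval -0.84 to 2.58), 0.81 for Rxra (interval -0.26 to 1.88) and -0.58 for Esrra (interval -1.26 to 0.10). Rxra kept a positive sign in each of 22 alternatives and Esrra a negative one in each of 23, and the Ppara value was 0.01 without KO IP replicate 2.

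Genes that these regulators are known to drive were listed by hand, and the list of 31 PPARα targets lay to the lower side in KO Input. The lists were made with earlier results of these data known, so their counts and medians are a description. In that comparison 0 of 31 were called, 5 had a positive log2 difference, and the list median was -0.20 beside -0.01 over all tested genes. At an unadjusted p under 0.05 there were 7 of 31, all lower in KO, where 3.53% of all tested genes were. Libraries did not overlap for 7 of the 31, all lower in KO, where 6.20% of all tested genes were lower without overlap. Over 24 alternatives the median stayed negative, from -0.25 to -0.14. Without WT Input replicate 3, the library with the most Ucp1 and Adipoq, it was -0.23. WT Input replicate 1, with Ucp1 at 52.3 CPM, was still in that fit, and the part of fat cells in this list was not tested. DESeq2 and limma-voom called 0 of 31. In IP the list median was -0.08, with 10 of 31 positive and 0 called.

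Pdk4, the kinase that turns off pyruvate oxidation when fat is burned, had the smallest p of that list. It stood at 857, 1073 and 840 CPM in WT Input and 194, 435 and 580 CPM in KO Input. The KO libraries all lay below the WT libraries. The log2 difference was -1.23 (SE 0.30, adjusted p = 0.110 by edgeR's quasi-likelihood test). It passed the threshold in 4 of 24 alternatives, among them the fit with a replicate block (adjusted p = 0.00756) and the one without KO IP replicate 1 (adjusted p = 0.0255). Over the 24 alternatives the log2 difference ran from -1.62 to -0.89. The adjusted p, by the test of each alternative, ran from 6.6e-09 to 0.811. In IP the levels of Pdk4 were 449, 600 and 595 CPM in WT and 194, 447 and 572 CPM in KO, which overlapped. Acot1, an acyl-CoA thioesterase, was 82.3, 101 and 94.0 CPM in WT Input and 41.9, 38.5 and 28.4 CPM in KO Input, a log2 difference of -1.31 with an adjusted p of 0.251 by edgeR's quasi-likelihood test. Angptl4, a secreted inhibitor of lipoprotein lipase, was 32.4, 41.9 and 40.3 CPM in WT Input and 3.81, 27.0 and 28.4 CPM in KO Input, from 13 counts in KO. The fatty acid importer Cd36 and the lipase Lpl did not follow, with log2 differences of 0.08 and -0.03.

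The 23 listed targets of estrogen-related receptors and PGC-1 were balanced between genotypes in their signs and medians. Of them 0 were called in either fraction, 12 were positive in Input and 11 in IP, and the medians were 0.00 and -0.02. At an unadjusted p under 0.05 by edgeR's quasi-likelihood test there were 3 of 23 in Input, beside 7.11% of all tested genes, and 0 in IP. Input libraries did not overlap for 1 gene higher and 3 lower in KO, beside 6.17% and 6.20% of all tested genes. In Input the smallest p belonged to Got2, the mitochondrial aspartate aminotransferase, with 441, 412 and 363 CPM in WT and 282, 300 and 301 CPM in KO. Its log2 difference of -0.47 had an adjusted p of 0.589 by edgeR's quasi-likelihood test. In IP it belonged to the mitochondrial deacetylase Sirt3 (log2 -0.49, adjusted p = 0.965 by the same test).

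**Figure D4:**
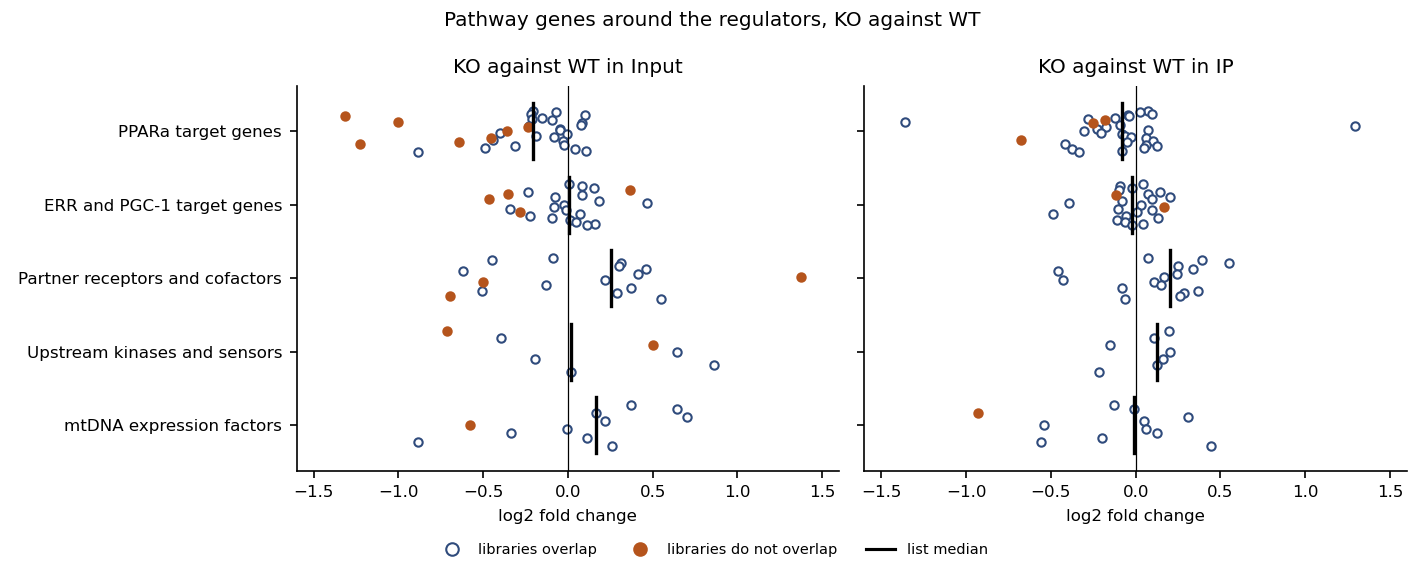
Log2 fold change of KO against WT (horizontal axis) for the tested genes of 5 hand-written lists, in Input on the left and IP on the right. Each point is a gene, filled where the 3 KO and 3 WT libraries do not overlap, and black bars are list medians. In Input the PPARα target list has its median at -0.20, with 7 filled points, all on the lower side.

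Between fractions the targets moved in both directions, beside 5.37% of all tested genes higher and 8.67% lower in IP in WT, and 6.64% higher and 9.78% lower in KO. Of 23 targets of estrogen-related receptors and PGC-1, 5 rose and 4 fell in IP in WT, and 7 rose and 3 fell in KO. Sod2, the superoxide dismutase of the mitochondrial matrix, rose in both genotypes (log2 0.73 in WT and 0.96 in KO), and Vegfa, an endothelial growth factor, fell in both (log2 -1.09 and -1.22). Citrate synthase (Cs) rose in KO by 0.81 on the log2 scale, with WT means of 1097 CPM in Input and 1433 CPM in IP. Suclg1, a subunit of succinyl-CoA ligase, fell in WT by 0.87 on the log2 scale, with KO means of 883 and 440 CPM. Of the 31 PPARα targets 0 rose and 5 fell in WT, and 2 rose and 4 fell in KO. Fabp3, the fatty acid-binding protein of heart muscle, fell by 0.86 on the log2 scale in WT, but differed by -0.35 (adjusted p = 0.319 by edgeR's quasi-likelihood test) with the length trend removed. Cd36 fell by 0.79 and Hadhb, a subunit of the trifunctional protein, rose by 0.63 in KO. Acot1 fell by 1.34 in WT. The adjusted p of these named changes ran from 9.1e-05 to 0.00779 by edgeR's quasi-likelihood test. A gene was named for the genotype where its p was among the smallest, which does not show a difference between genotypes. For the interaction of genotype and fraction 0 of the 23 and 0 of the 31 were called, against 0.0910% of all tested genes.

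Cpt1b, the muscle enzyme that admits fatty acids to mitochondria, shares exons on its strand with the read-through gene Gm44502. Cpt1b had 83 counts and Gm44502 2183, and reads of the 2 cannot be told apart. Cpt1b fell by 4.45 on the log2 scale in IP in WT, from 47 counts in Input to 3 in IP, and Gm44502 differed by -0.30 (adjusted p = 0.188 by edgeR's quasi-likelihood test). In KO Cpt1b fell by 2.93 and Gm44502 by 0.85 on the log2 scale, the latter with an adjusted p of 0.000280 by the same test. How reads were divided between these 2 gene entries was not tested.

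Calls among partners and enzymes around the group are given beside the shares of all tested genes. Between genotypes those shares were 0.182% in Input and 0.0910% in IP. For IP against Input 5.37% were higher and 8.67% lower in WT, and 6.64% higher and 9.78% lower in KO. Of 20 listed partner receptors and cofactors 16 were tested, and 0 were called between genotypes in Input or IP. In KO 2 of 16 were called higher in IP, among them the acetyltransferase Crebbp (log2 0.84, adjusted p = 0.0425 by edgeR's quasi-likelihood test). In WT 0 of 16 were called between the fractions, and Crebbp had means of 58.8 CPM in Input and 92.3 CPM in IP. Ncoa2, a coactivator of nuclear receptors, was 29.9, 19.7 and 23.5 CPM in WT Input and 30.5, 50.1 and 125 CPM in KO Input, where the shallowest library was the highest, with an adjusted p of 0.440 by the same test. Of 12 kinases and sensors upstream of PGC-1, 7 were tested, 0 were called between genotypes, and Ppp3ca, a catalytic subunit of calcineurin, rose in IP in KO (log2 0.88, adjusted p = 0.00880 by edgeR's quasi-likelihood test). Of 16 genes for mitochondrial DNA expression 11 were tested and 0 were called between genotypes. Of these, Lrpprc, which stabilises mitochondrial messenger RNA, rose in IP in WT (log2 0.76, adjusted p = 0.0394), and Mterf3, of the mitochondrial termination factor family, fell in KO (log2 -1.29, adjusted p = 0.0159), both by edgeR's quasi-likelihood test. These calls depended on the setting, with Crebbp past the threshold in 9 of 24 alternatives, Lrpprc in 15 of 24, Mterf3 in 16 of 23 and Ppp3ca in 22 of 24.

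Across the 12 libraries, the profiles of log2 CPM most like those of the 3 best-counted tested members were found among 3028 tested genes with a mean of at least 50 CPM. For Perm1 they were Ldha (Pearson r = 0.963), Nomo1 (0.957) and Eef1a2 (0.95), and after removing group means the same correlations were 0.568, 0.606 and 0.645. For Esrra they were Crat (0.852), Slc39a1 (0.815) and Map7d1 (0.810), and 0.824, 0.844 and 0.785 within groups. For Ppargc1a they were Rb1cc1 (0.789), Zbtb20 (0.766) and Tcf4 (0.754), and 0.674, 0.589 and 0.599 within groups. The libraries share fraction, purification method and depth in these comparisons, and the values describe likeness over these libraries.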

How the data were processed

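The deposited values are integer counts per gene and library, made by the authors. Per the submitters' processing notes, minimap2 2.14, DESeq2 1.34.0 and GRCm38 were used, with no role stated, and the counting rule, strand setting and annotation are not given in the sources used here. Names, coordinates and lengths (longest coding transcript) came from GENCODE M21 (GRCm38), which held 55141 of the 55401 identifiers. The test of the counts was that of edgeR 4.0.16 under R 4.3.3 (filterByExpr with minimum count 10 and minimum total 15, TMM, quasi-likelihood fit with 1 mean per group over 12 libraries, Benjamini-Hochberg adjustment over 6596 genes, threshold 0.05). CPM are scaled to TMM library sizes over tested genes, and the SE of a log2 change was derived from its F statistic. Nothing says that the 3 libraries of a group came from separate hearts, so p-values measure the spread between these libraries. A rank test of 3 against 3 cannot go below an exact p of 0.10. The method was tested on simulated data. Genes named are the members, up to 3 called genes (or the 1 with the smallest p) per list and contrast, Rpl3l and the 3 likest genes of 3 members. Acot1 and Angptl4 in KO Input, Cd36 and Lpl between genotypes, Pdk4 in IP and Gm44502 were added after their values were seen. A listed gene is not reported here. The members and lists were chosen with earlier results of these data known. Alternatives were other scalings (DESeq2 1.42.0 size factors, totals), filters, tests (DESeq2, limma-voom with limma 3.58.1), a length correction (loess span 0.5), thinning, a replicate block and leaving libraries out.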

Additional observations from a re-analysis of the deposited data

How the results depend on the processing

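Perm1 stayed past the threshold for IP against Input in each of 24 alternatives in both genotypes (adjusted p up to 0.0411 in WT and 0.0118 in KO). The number of called members was 1 in place of 2, without Ppargc1b, under the stricter filter, the DESeq2 test, limma-voom and thinning in both genotypes. In WT it was also 1 with the length trend removed and with 3 libraries (the shallowest and the 2 richest in globin) left out, a choice made after seeing the data. Leaving out 1 library gave 1 to 2 called members in either genotype. Ppara, Ppargc1b, Rxra and Esrrg fell under the filter in some alternatives, which then give no value for them. Members called between genotypes or for the interaction were 0 in every alternative run. Same-numbered libraries did not deviate together (r from -0.115 to 0.0423 in 18 cases, with the own number the best match in 0), so numbers were not taken as pairs. With the replicate block the calls of Perm1 (0.88 in WT, 0.95 in KO) and Ppargc1b (1.34 and 1.49) were kept. Ppargc1b again entered through its IP libraries.

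Signs turned for differences near 0, for reasons that were not tested. With library totals, KO against WT was 0.0032 for Tfam in Input, and 0.026 for Esrrg and 0.0079 for Perm1 in IP, and IP against Input in WT was 0.010 for Rxra (0.017 without a filter). Esrrg in KO was -0.11 with limma-voom and -0.017 with the length trend removed, and the Perm1 interaction was -0.11 after thinning.

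Leaving out 1 library turned a sign in these ranges. For KO against WT in Input they were -0.20 to 0.19 for Tfam, -0.15 to 0.51 for Ppargc1b and -0.26 to 0.36 for Ppara, and in IP -0.20 to 0.23 for Tfam and -0.39 to 0.31 for Esrrg. For IP against Input they were -0.48 to 0.26 for Rxra and -0.17 to 0.58 for Ppara in WT, and -0.065 to 0.64 for Esrrg in KO. For the interaction they were -0.046 to 0.17 for Perm1, -0.16 to 0.28 for Tfam, -0.27 to 0.50 for Ppargc1b, -0.23 to 0.54 for Ppargc1a and -0.77 to 0.061 for Esrrg. Depth limits the members with few counts most, since 3 counts in the shallowest library stand for 17.0 CPM.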
